A study of Mus musculus with 4 samples.

Results

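The miRNAs miR-219, miR-338-3p and miR-338-5p were followed in the mouse hippocampus after spatial learning. They were the 3 probes named exactly mmu-miR-219, mmu-miR-338-3p and mmu-miR-338-5p among the 705 mouse miRNA probes of a microarray, and each was printed as 3 spots, so that 9 spots were read on every array. No other probe name on the array began with miR-219 or miR-338. The tissue was the hippocampus of wild-type C57BL/6J mice, an inbred strain, which had been trained in the Morris water maze, where a mouse learns the place of a hidden platform in a pool. It was taken directly after training. Mice that performed well (good performers, 2 arrays) were compared with mice that performed badly (poor performers, 2 arrays), and both groups had swum the maze. The sources used here do not give the criterion that divided them, the age or sex of the mice, or the way the 4 mice of a group were spread over its 2 arrays. Each p-value therefore weighs a difference between groups only against the spread of arrays within groups, and that spread may be technical. RNA of whole tissue was measured, in which fewer cells of a type and less of a miRNA per cell cannot be told apart.

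Oligodendrocytes wrap axons of the central nervous system in myelin. As their progenitors leave the cell cycle and mature, miR-219 and miR-338 accumulate and repress genes that hold the progenitor state, among them the growth factor receptor gene Pdgfra and the transcription factor genes Sox6 and Hes5. Both are enriched in mature oligodendrocytes, though miR-219 has also been described in neurons, where it acts downstream of the NMDA receptor. A miRNA hairpin can give a mature strand from each of its arms, named 5p and 3p.

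All 3 probes were matched by name to a mature sequence in RefSeq (mouse build GRCm38.p6). These are shown because the seed, bases 2 to 8, sets which messenger RNAs a miRNA pairs with. The sources used here do not give the probe sequences. The probe named miR-219 was taken as miR-219a-5p, of which miR-219 is an older name. Seeds are in capitals, written 5′ to 3′.
miR-219 (miR-219a-5p): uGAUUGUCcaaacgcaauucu
miR-338-3p: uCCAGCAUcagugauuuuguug
miR-338-5p: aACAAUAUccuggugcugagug
The 3 seeds differ from each other, and among 1679 mature miRNA names in the RefSeq table each seed belonged to 1 name, the member itself. No other probe therefore shared a seed with a member in that table.

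The mature miR-219 sequence came from 2 genes, both on the minus strand: Mir219a-1 (mature bases at chr17:34025052-34025072) and Mir219a-2 (chr2:29845689-29845709). Mir219a-1 lies between Ring1 and H2-Ke6, and Mir219a-2 lies within the span of Cercam on the opposite strand. The mature sequences from both genes are identical, so the probe cannot tell which gene the miRNA came from. On the plus strand the gene Mir219b overlaps Mir219a-2, and its mature miR-219b-3p is complementary to all 21 bases of miR-219. Likewise Mir219c overlaps Mir219a-1, and its mature miR-219c-3p is complementary to miR-219 over a run of 20 bases. Neither had a probe here. Mir338 (minus strand) lies within the span of Aatk, a gene of the same strand that encodes a kinase abundant in the nervous system, and gives miR-338-3p (chr11:120014781-120014802) and miR-338-5p (chr11:120014816-120014837). The hairpins are shown because they set out which members share a precursor, with the measured arms in capitals.
Mir219a-1: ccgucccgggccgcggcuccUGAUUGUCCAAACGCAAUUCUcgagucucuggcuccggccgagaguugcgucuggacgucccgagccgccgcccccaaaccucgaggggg
Mir219a-2: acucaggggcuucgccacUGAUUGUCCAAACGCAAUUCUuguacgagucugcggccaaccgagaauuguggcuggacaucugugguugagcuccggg
Mir338: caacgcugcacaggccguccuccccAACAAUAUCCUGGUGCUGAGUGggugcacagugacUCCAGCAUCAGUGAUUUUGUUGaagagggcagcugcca
Both miR-338 members are thus arms of 1 hairpin, while miR-219 comes from other chromosomes.

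Each array detected 310 to 330 probes, a probe counting as detected with at least 2 of 3 spots at flag 0. The deposited flag was either 0 or -50, and the files do not state what it marks. The 316 probes detected on both arrays of a group were tested. The 36 blank spots averaged 63.0 to 64.4 in raw intensity and reached at most 75. Raw intensity at the median of the tested probes was 162 and 165 on the good-performer arrays and 160 and 164 on the poor-performer arrays, and the 75th percentile was 413 and 452 in good and 387 and 424 in poor performers. All 3 members were tested, and having 2 arrays per group limits how precise each value is.

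miR-219, which promotes oligodendrocyte maturation, was lower in good performers. Its raw spot intensity was 675, 634 and 658 on good-performer array 1 and 673, 669 and 682 on good-performer array 2. It was 760, 704 and 733 on poor-performer array 1 and 772, 743 and 751 on poor-performer array 2. The brightest spot of the good performers (682) was dimmer than the dimmest of the poor performers (704), so the groups did not overlap in any of 12 spots before normalization, which held in this direction for 8 of the 316 tested probes (2.53%). The array means averaged 665 ± 13.4 in good and 744 ± 16.3 in poor performers (SD, n = 2 arrays each). All 12 spots had flag 0, at 10.4 and 10.5 times the blank mean in good and 11.4 and 11.8 times in poor performers.

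**Figure D1:**
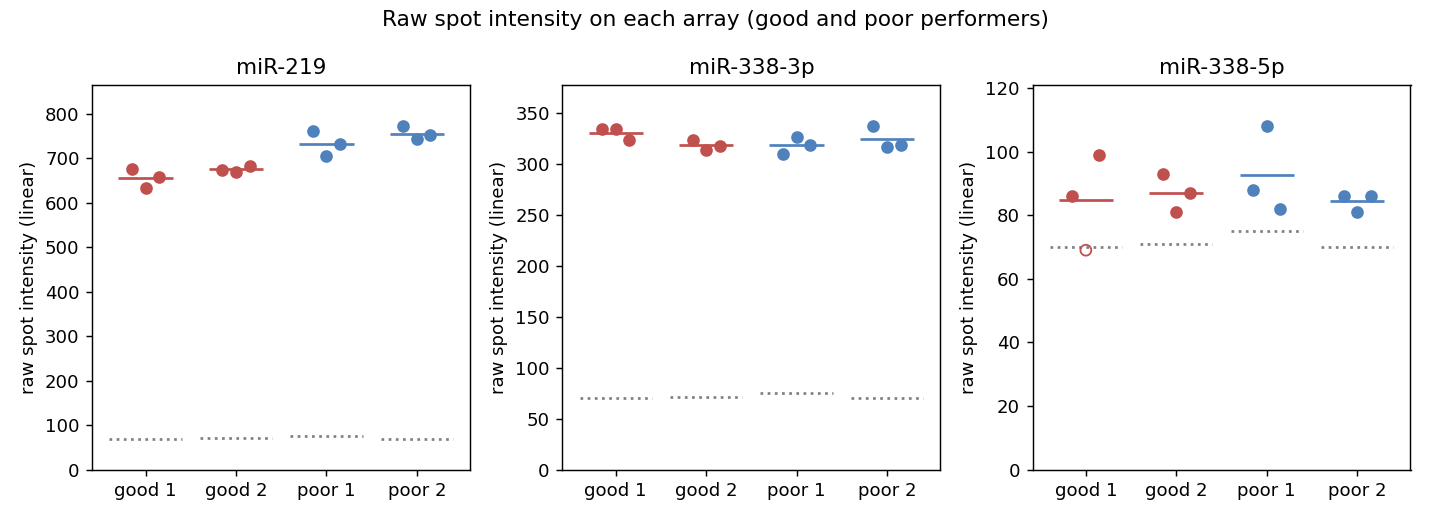
Raw spot intensity on a linear axis (y) of the 3 probes on each array (x), with good performers in red and poor performers in blue. Points are spots (open: flag -50), solid lines are array means and dotted lines are the brightest blank spot of that array. For miR-219 all good-performer spots lie below all poor-performer spots, and for miR-338-3p the groups overlap. miR-338-5p lies near the blank spots, with 11 of its 12 spots above the brightest blank spot of their array and the open point below it.

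After background correction and quantile normalization the log2 intensity of miR-219 was 9.35 and 9.32 on the good-performer arrays, against 9.60 and 9.60 on the poor-performer arrays. The means were 9.33 ± 0.022 in good and 9.60 ± 0.0015 in poor performers (SD, n = 2 each). The log2 fold change was -0.27 ± 0.03 (SE; 95% interval -0.35 to -0.19), or 0.831 times the level of poor performers, and it passed (limma adjusted p = 0.025). Of the 316 tested probes 6, or 1.9%, passed as lower in good performers, and 10, or 3.16%, as higher. By size of change miR-219 ranked 6 of 316 from the lowest. Normalized array values that did not overlap were common: in 27.5% of tested probes both good-performer arrays lay below both poor-performer arrays.

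The size of the miR-219 difference depended on the scale. In the raw values it was -0.16 log2 units (0.894 times), and it kept that size without normalization after background correction (-0.16, adjusted p = 0.130). Good-performer arrays were brighter on average at the 75th percentile, though the groups overlapped there, and the median log2 fold change of all tested probes was 0.03 without normalization, -0.0072 as reported and -0.11 with scaling to the spike-in controls, RNA added in fixed amounts. Against the spike-in controls miR-219 had a log2 fold change of -0.30 (adjusted p = 0.015). In the authors' deposited table the normalized intensity of miR-219 was 665 and 634 in good and 774 and 775 in poor performers, and the authors' deposited table gave a log2 ratio of -0.25, rank 16 of 383 from the lowest, where the median probe had -0.08. Centred on the array median, the authors' values gave -0.14 (adjusted p = 0.146). The 3 spot positions, each taken alone, gave -0.28, -0.27 and -0.25, of which the second alone passed (limma adjusted p = 0.073, 0.044 and 0.084). When any 1 array was left out the value stayed between -0.28 and -0.25, with no probe of the whole array past the threshold (40 to 59 at an unadjusted p under 0.05).

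**Figure D2:**
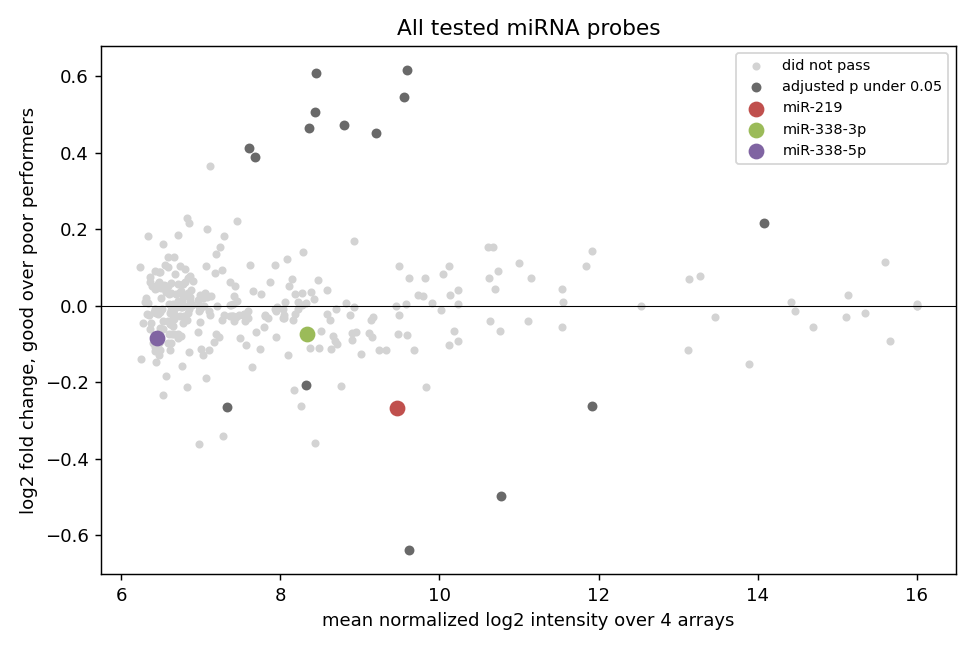
Log2 fold change of good over poor performers (y) against mean normalized log2 intensity over the 4 arrays (x) for the 316 tested probes. Grey points did not pass, dark points had a limma adjusted p under 0.05, and the members are coloured; miR-219 (-0.27) lies among the lowest probes, miR-338-3p lies at -0.07 and miR-338-5p at -0.09, within the bulk.

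miR-338-3p, the strand of the Mir338 hairpin that acts beside miR-219 in oligodendrocyte maturation, did not pass. Its raw spot intensity was 334, 334 and 323 on good-performer array 1 and 323, 314 and 318 on good-performer array 2. It was 310, 326 and 319 on poor-performer array 1 and 337, 317 and 319 on poor-performer array 2. The spots of the groups overlapped, between 314 and 334 in good and between 310 and 337 in poor performers, and the array means averaged 324 ± 8.49 in good and 321 ± 4.24 in poor performers (SD, n = 2 each).

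All 12 spots had flag 0 and stood at 4.95 to 5.25 times the blank mean in good and 4.97 to 5.08 times in poor performers. The normalized log2 intensity of miR-338-3p was 8.32 and 8.28 in good performers, against 8.40 and 8.35 in poor performers. On this scale the groups did not overlap, as in 27.5% of tested probes in this direction, yet the log2 fold change of -0.07 ± 0.03 (SE; 95% interval -0.17 to 0.02) did not pass (limma adjusted p = 0.323). The sign turned with the scale: the log2 fold change was 0.0089 without normalization and 0.05 in the authors' values after centring, against -0.13 with scaling to the spike-in controls, and it passed in none of the settings tried. The authors' deposited table gave a log2 ratio of -0.07, near its median of -0.08 over 383 probes.

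miR-338-5p, the other arm of that hairpin, was near the limit of detection. Its raw spot intensity was 86, 69 and 99 on good-performer array 1 and 93, 81 and 87 on good-performer array 2. It was 88, 108 and 82 on poor-performer array 1 and 86, 81 and 86 on poor-performer array 2. The groups overlapped, the array means were 1.34 and 1.35 times the blank mean in good and 1.45 and 1.32 times in poor performers, and the spot at 69 carried flag -50 and was dimmer than the brightest blank spot of its array (70). The other 11 of 12 spots had flag 0 and were brighter than every blank spot of their arrays.

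The normalized log2 intensity of miR-338-5p was 6.40 and 6.40 in good performers, against 6.57 and 6.40 in poor performers, so that poor-performer array 1 alone stood apart. The log2 fold change was -0.09 ± 0.07 (SE; 95% interval -0.27 to 0.10) and did not pass (limma adjusted p = 0.550). Without poor performers replicate 1 it was -0.00030, and without poor performers replicate 2 it was -0.17. The 3 spot positions gave 0.02, -0.38 and 0.10 in turn, and the second position holds both the spot at 69 and the spot at 108. Between the spots of 1 array the root mean square SD was 0.18 log2 units for this probe, against 0.04 for miR-219 and 0.03 for miR-338-3p. Scaling to the 75th percentile was the 1 setting in which miR-338-5p passed, at -0.19 (limma adjusted p = 0.045), with 55 probes lower in good performers and a median of all tested probes of -0.10.

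**Figure D3:**
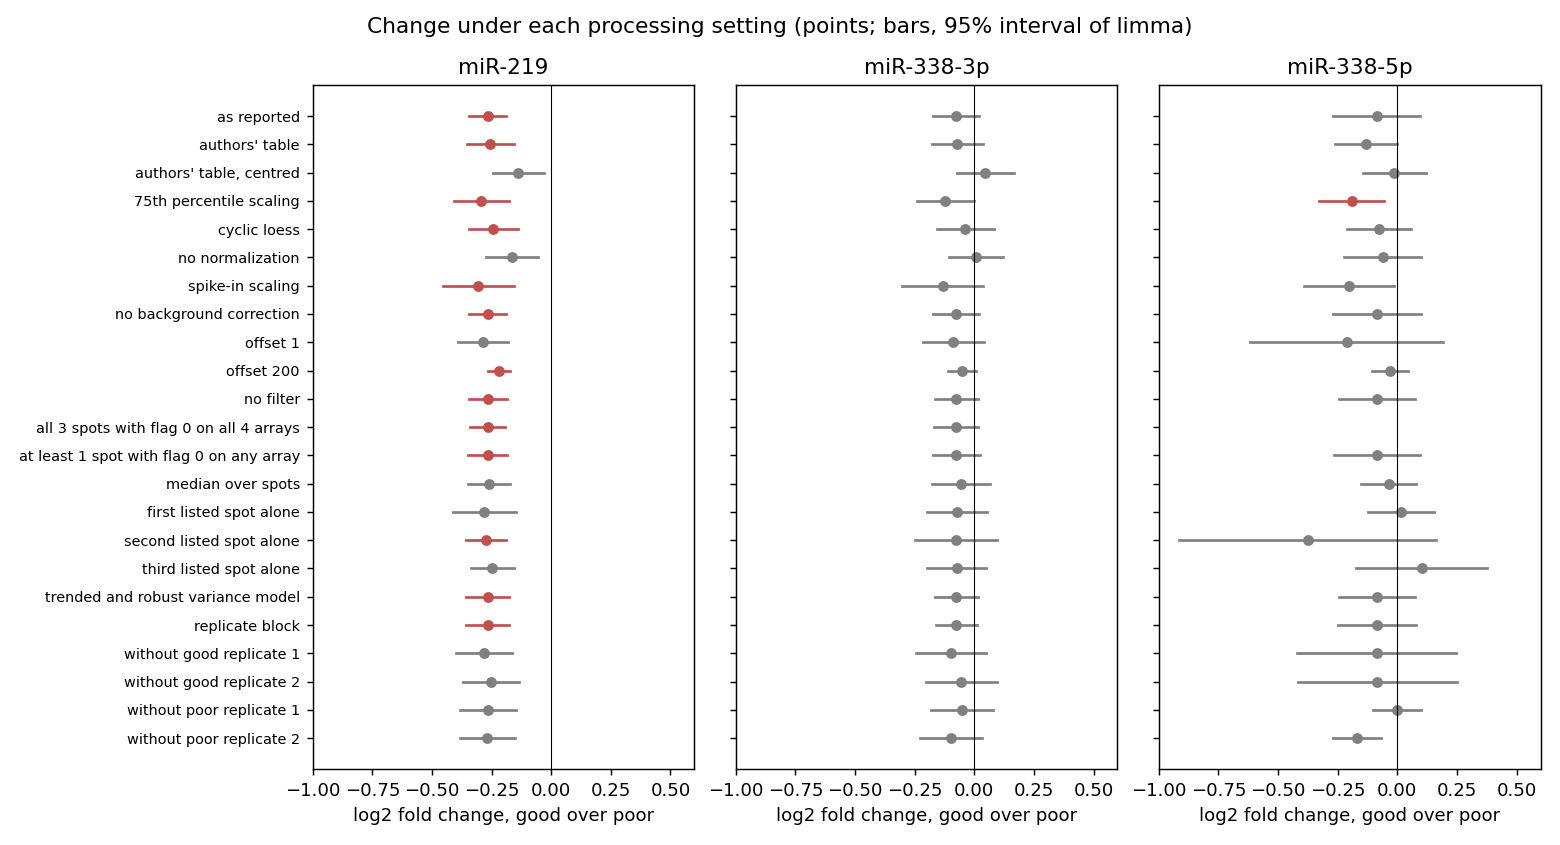
Log2 fold change of good over poor performers (x) for each member under every processing setting and with each array left out (y). Points are estimates, bars 95% intervals of limma, and red marks an adjusted p under 0.05; miR-219 lies below 0 throughout, and each miR-338 arm changes sign in 2 settings. miR-338-5p has no point where all 3 spots had to be at flag 0 on all 4 arrays. Where only the probe filter, variance model or block changed, the estimate was the same by construction.

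Whether the members changed unequally was asked within each array, so that a brightness common to all probes of an array cancels. The log2 difference of miR-219 minus miR-338-3p was 1.03 and 1.04 in good performers, against 1.20 and 1.25 in poor performers. That difference was lower by 0.19 in good performers and did not overlap between groups. The share of all probe pairs that do not overlap was not counted. With 2 arrays a group the exact two-sided permutation test can give no p under 0.3333, the value it gave here (adjusted p over the 3 pairs compared = 0.5). This contrast ranged from -0.21 to -0.17 over the other 18 settings with 4 arrays and from -0.21 to -0.17 with 1 array left out. Much of that narrowness is built in, since scaling or centring of whole arrays cancels in the contrast. It was the same -0.17 without normalization, with 75th percentile scaling and with spike-in scaling. A change of probe filter, variance model or block left it at the reported value. For miR-219 minus miR-338-5p the difference between groups was -0.18 (exact permutation p = 0.3333, adjusted p = 0.5). For the 2 arms of the Mir338 hairpin, miR-338-3p minus miR-338-5p, it was 0.01 (exact permutation p = 1, adjusted 1), and its values were 1.92 and 1.88 in good and 1.83 and 1.95 in poor performers. These differences serve only to compare changes, since the brightness of 2 probes does not rank the abundance of their miRNAs.

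The probes whose profile over the 4 arrays was most like that of miR-219 were sought by the smallest Euclidean distance after each probe was centred on its own mean. They were miR-691 (distance 0.018, log2 fold change -0.27), miR-762 (0.063, -0.26) and miR-665 (0.072, -0.22), against a median distance of 0.27. For miR-338-3p they were miR-126-5p (0.023), miR-138 (0.030) and miR-411 (0.035), with log2 fold changes of -0.09, -0.06 and -0.05. For miR-338-5p they were miR-1931 (0.032), miR-30e (0.040) and miR-92a* (0.057), each with its highest value on poor-performer array 1. With 4 arrays this likeness says little beyond the sign and size of a change. The probes nearest to miR-219 in normalized brightness had log2 fold changes of -0.07 (miR-483) and -0.0020 (miR-30a), and neither passed (limma adjusted p = 0.550 and 1). Those nearest to miR-338-3p had -0.21 (miR-711, which passed, limma adjusted p = 0.043) and 0.0060 (miR-378), and those nearest to miR-338-5p had -0.15 (miR-714) and 0.05 (miR-30a*), which did not pass.

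The members were then read beside other miRNAs with known roles in the oligodendrocyte lineage. Of 18 such probes 14 were tested, and none of the 14 passed in either direction (limma), against 5.06% of all tested probes. At an unadjusted p under 0.05 there were 2 of the 14 (miR-125a-3p and miR-20a), against 20.9% of all tested probes. Their median log2 fold change was -0.04 (all tested probes: -0.0072), 9 had the lower mean in good performers and 5 the higher, where 53.8% of all tested probes had the lower mean. This split moved with the scale, to 12 lower and 2 higher in the authors' normalized table, 13 and 1 with scaling to the spike-in controls, and 5 and 9 without normalization. Among 5 further tested miRNAs that promote maturation, miR-138 had a log2 fold change of -0.06, miR-7a, which favours formation of oligodendrocyte lineage cells, had -0.08, miR-23a and miR-23b, which repress lamin B1, had 0.03 and 0.10, and miR-146a had 0.04. miR-32 and miR-297c had no spot at flag 0 on any array, with raw means of 60.5 and 66.3 that lay below the brightest blank spot of every array, and were not tested.

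Among 5 miRNAs that restrain maturation, miR-125a-3p had the largest difference of the list. Its log2 intensity was 7.02 and 7.20 in good performers, against 7.38 and 7.52 in poor performers. The groups did not overlap, as in 27.5% of tested probes in this direction. The log2 fold change was -0.34 (95% interval -0.58 to -0.10) and did not pass (limma adjusted p = 0.154), though it passed in 5 of the 18 other settings with 4 arrays. miR-9 had -0.07, miR-27a -0.07, miR-145, which represses the myelin regulator gene Myrf, -0.02, and miR-212 0.06. Of the miR-17-92 cluster, which supports the division of progenitors, miR-20a had -0.12 (limma adjusted p = 0.154), miR-17 -0.05, miR-92a -0.04 and miR-19b 0.07, while miR-18a and miR-19a had no spot at flag 0.

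**Figure D4:**
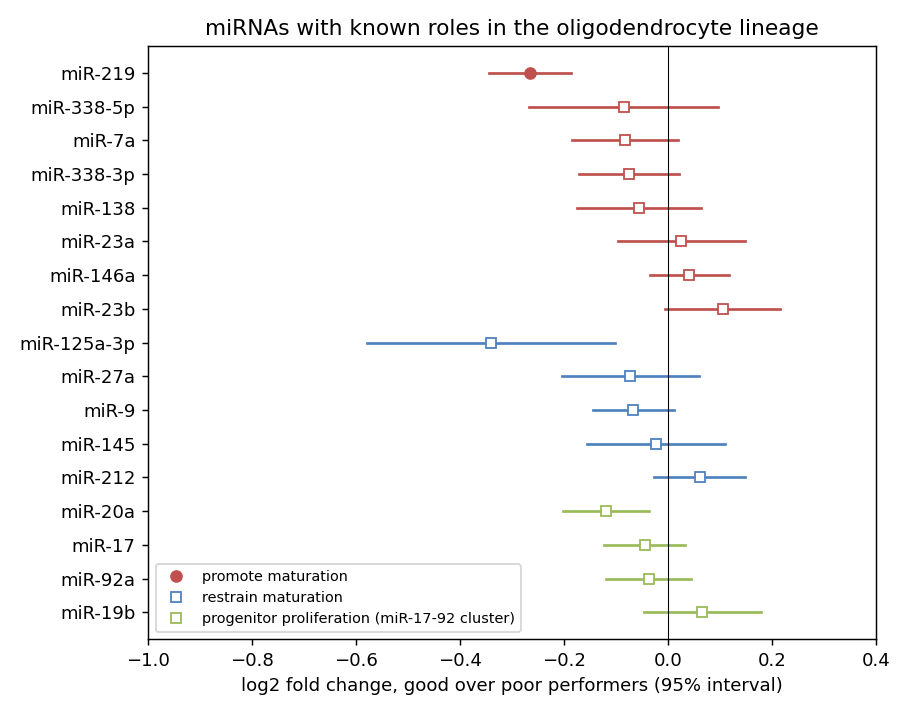
Log2 fold change of good over poor performers (x, with 95% intervals of limma) of the 17 tested miRNAs with known roles in the oligodendrocyte lineage, by role. Filled circles passed at an adjusted p under 0.05 and open squares did not; miR-219 (-0.27) is the 1 that passed, and miR-125a-3p (-0.34) has the lowest value and a wider interval.

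Markers of the cell types that hippocampal tissue holds were examined beside the members. Some also stand in the lineage list above: miR-138 (neuronal), miR-23a and miR-23b (astrocyte), miR-145 (vascular) and miR-146a (microglial and immune). All 7 neuronal markers were bright enough to be tested, and miR-124, the brightest of them, had a log2 fold change of 0.0097. Their median was 0.0061, 4 of 7 had the higher mean in good performers and none passed (limma; 2 at an unadjusted p under 0.05, against 20.9% of all tested probes). All 7 astrocyte markers had the higher mean in good performers, none passed (limma; 2 at an unadjusted p under 0.05, against the same 20.9%), and their median was 0.04, with miR-29a at 0.10 (limma adjusted p = 0.193). The number with the higher mean was 5 of 7 in the authors' normalized table, 4 with 75th percentile scaling, 6 with cyclic loess and 2 with scaling to the spike-in controls, and 7 in the other scalings. Of the neuronal markers 1, 1, 4 and 0 had the higher mean in the same 4 scalings, and 7 in the centred authors' table and without normalization. The median log2 fold change of all tested probes was -0.08, -0.10, -0.0036 and -0.11 in the same 4 scalings. It was 0.03 in the centred authors' table and 0.03 without normalization. Summed over a list on the linear normalized scale, the astrocyte markers reached 13183 and 12970 in good and 12439 and 12572 in poor performers. The 3 oligodendrocyte probes, of which miR-219 was the brightest, reached 907 and 884 in good and 1060 and 1037 in poor performers. Sums of the vascular (1263 and 1269 against 1334 and 1271) and erythroid markers (158 and 167 against 185 and 169) were also lower in good performers without overlap. So were those of the choroid plexus and ependymal markers (460 and 455 against 475 and 464). The neuronal sums and the microglial and immune sums overlapped between groups. Among single tested probes 27.5% were lower in good performers without overlap. How often sums of other lists do not overlap, in either direction, was not counted. The part of cell type proportions in the difference of miR-219 was not tested.

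Of 8 microglial and immune markers 4 were tested and had a median of 0.01 (miR-21 -0.04), while miR-142-3p, miR-142-5p, miR-155 and miR-223 were not detected well enough to test. The vascular markers had a median of -0.03 over 5 (miR-126-5p -0.09), the choroid plexus and ependymal markers of -0.02 over 5 (miR-204 -0.02), and the erythroid markers, with miR-144 not tested, of -0.07 over 2 (miR-451 -0.09). None of these markers passed as processed here (limma; 2 of the 16 at an unadjusted p under 0.05, against 20.9% of all tested probes). In the authors' normalized table miR-126-3p of the vascular list and miR-34c of the choroid plexus and ependymal list passed. Of all 316 tested probes 37 passed in that setting. With 75th percentile scaling miR-34c also passed, where 66 of the 316 tested probes did. The 3 oligodendrocyte probes had a median of -0.09, which is the value of miR-338-5p, the probe near the limit of detection. In the authors' normalized table the median was -0.13 for the oligodendrocyte probes and -0.17 for the erythroid markers, where all tested probes had -0.08. With scaling to the spike-in controls it was -0.20 and -0.19, where all tested probes had -0.11.

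**Figure D5:**
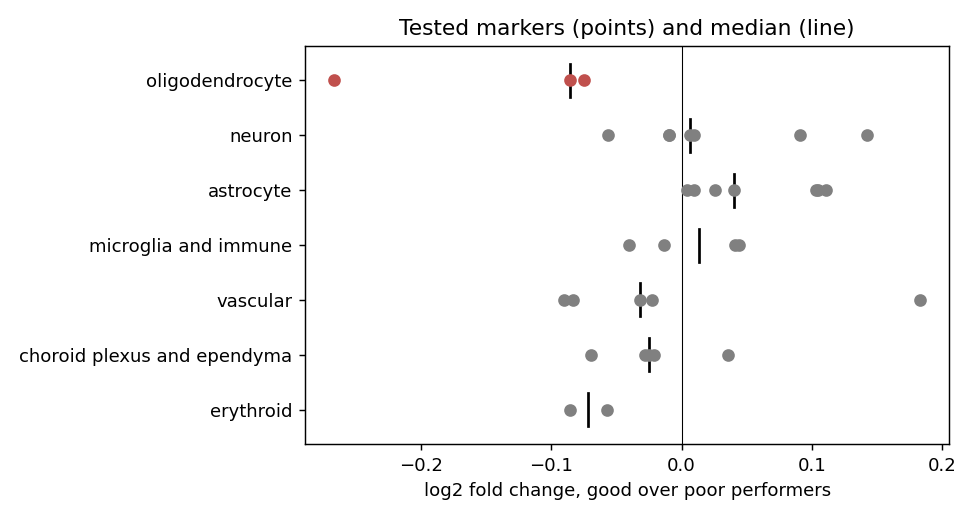
Log2 fold change of good over poor performers (x) of the tested markers of each cell type (rows). Points are probes and vertical lines medians; miR-219 at -0.27 lies apart from the other points, and the 7 astrocyte markers all lie above 0, as 5 did in the authors' normalized table and 2 with scaling to the spike-in controls.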

How the data were processed

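Total RNA was labelled with Cy5 and enriched for small RNA with a size filter, per the labels' protocols, with 1 sample per array. The deposited raw intensity, per the file headers, was unnormalized, with a deposited flag score of 0 or -50 for each spot. The authors' normalized intensity for 383 probes and log2 ratio were deposited without a stated method, and the series value table repeated them. The sources used here name no array design, scanner or software.

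Background was removed from the raw intensity by normexp with an offset of 50, using every spot for the model (limma 3.58.1 under R 4.3.3). Log2 values of the miRNA spots were then quantile-normalized, and the 3 spots of a probe averaged. A log2 fold change with this offset understates changes of dim probes. Testing required 2 or more spots at flag 0 on each array of at least 1 group. lmFit and eBayes compared the groups, two-sided, with Benjamini-Hochberg adjustment over all 316 tested probes and a threshold of 0.05. eBayes draws the variance of a probe partly from all tested probes. That prior variance was 0.00138 on 2.02 degrees of freedom, against 0.000237 for miR-219 by itself. The test was also run on data simulated from the variance model of the same fit. That run cannot check the normalization or what the arrays of a group replicate.

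The members and lists were chosen with earlier results of these data known. Names followed a written rule: members, probes sharing a name stem or seed, tested lineage miRNAs, the 3 nearest profiles, the 2 nearest in brightness and the brightest marker of each list. Any other name was picked with its values known.

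Arrays of a group were compared over 300 probes detected on all arrays, with spots matched by position. The variance of their differences was 2.68 times that of spot noise in good and 2.34 times in poor performers, so they were not taken as copies of 1 array. This does not show separate animals, since repeat hybridisations of the same RNA could differ as much. Replicate numbers were not taken as pairs. Sequences, locations and neighbouring genes came from RefSeq tables of GRCm38.p6, and no build is named for the array.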

Additional observations from a re-analysis of the deposited data

How the results depend on the processing

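miR-219 was lower in good performers in all 18 alternatives with 4 arrays (log2 fold change -0.30 to -0.14) and passed in 12 of them. Where only the probe filter, variance model or block changed, miR-219 kept its estimate of -0.27 by construction, and it passed there. It did not pass in the centred authors' table (-0.14), without normalization (-0.16), with offset 1 (-0.29, adjusted p = 0.061), when the spots' median was taken (-0.26, adjusted p = 0.064), from spot 1 (-0.28) or spot 3 (-0.25) alone, or without any 1 array (-0.28 to -0.25, adjusted p = 0.137 to 0.209). With the replicate number as a block its adjusted p was 0.048 and 13 probes passed; same-numbered arrays deviated with a correlation of 0.22, which with 2 pairs was not taken as pairing. miR-338-3p turned to 0.047 once the authors' table was centred and to 0.0089 without normalization. miR-338-5p passed with 75th percentile scaling (-0.19), turned to 0.016 and 0.10 from spots 1 and 3 alone, and had -0.17 to -0.00030 without 1 array. miR-219 minus miR-338-5p turned to 0.10 from spot 2 alone. miR-338-3p minus miR-338-5p turned to -0.020 with offset 200, -0.019 for the spots' median, -0.090 and -0.18 from spots 1 and 3 alone, and had -0.050 to 0.072 without 1 array.

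Of the lineage list 1 probe was called. The count was 2 in the authors' table, 2 with cyclic loess, 2 with spike-in scaling, 2 with the trended and robust variance model, 2 with the replicate block and 5 with 75th percentile scaling. It was 0 in the centred authors' table, without normalization, with offset 1, for the spots' median, from spot 1 or spot 3 alone, and 0 to 0 without 1 array. The 16 probes called over the whole array became 37 in the authors' table (6 higher, 31 lower), 66 with 75th percentile scaling (11 higher, 55 lower), 31 with spike-in scaling (10 higher, 21 lower), 30 with the trended and robust variance model, 7 with offset 1, 6 for the spots' median, 10 and 3 from spots 1 and 3 alone, and 0 to 0 without 1 array, a fit with 1 degree of freedom less that takes the lone array to spread as the other group does. The split was 15 higher and 5 lower in the centred authors' table and 12 and 3 without normalization. The cause was not tested for the changes not explained by fewer arrays. Dim signal limits miR-338-5p, at 1.32 to 1.45 times the blank mean.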
